A study of Mus musculus with 11 samples.

Results

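The Ikaros family of zinc finger transcription factors, encoded in mouse by Ikzf1 (Ikaros), Ikzf2 (Helios), Ikzf3 (Aiolos), Ikzf4 (Eos) and Ikzf5 (Pegasus), was followed across 3 kinds of CD4 T cell. The 5 genes, of 18193 measured, were taken by name and not by their values, though with earlier results of these data known. They are read by 13 probe sets, and the main value of each gene comes from its brightest probe set on average across the 11 arrays. Expression was measured on Affymetrix arrays, 1 per sample, with total RNA of CD4 T cells. The mice were 6 to 8 weeks old, and their spleen and lymph node cells were enriched by positive selection and then sorted on GFP. The group called GFPKO (n = 3) is GFP-positive cells of Foxp3GFPKO/WT mice, named as heterozygous for a GFPKO allele of Foxp3, the master factor of regulatory T cells. The group called Treg (n = 5) is Foxp3-positive CD4 T cells. The group called TN (n = 3) is naive Foxp3-negative CD4 T cells. The labels name no strain, no number of mice and no reporter allele for the Treg and TN groups, and do not say whether the arrays within a group hold different mice. The p-values therefore reflect array-to-array spread, part of which may be technical.

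Ikaros factors bind DNA through zinc fingers near the amino terminus and pair with each other through a further set of fingers at the carboxy terminus. In lymphocytes they act largely by bringing chromatin regulators such as the NuRD complex to their target genes, and they repress Il2 in CD4 T cells. Helios is widely used as a marker of regulatory T cells and contributes to their stability, Eos is a partner of Foxp3 in gene repression, and Aiolos restrains Il2 in Th17 cells.

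Several properties of the arrays touch the results. Foxp3 gave log2 values of 6.93 ± 0.23 in GFPKO (SD, n = 3) and 3.47 ± 0.16 in Treg (n = 5), against 3.48 ± 0.45 in TN (n = 3). The low value goes against the label of the Treg arrays, so "Treg" means the arrays labelled Treg throughout, and the directions for them depend on this labelling. The Foxp3 signal is a transcript level and does not show whether the GFPKO cells make working Foxp3 protein. Il2ra, which encodes CD25 and is high in regulatory T cells, read 8.41 ± 0.20 in GFPKO and 9.18 ± 0.13 in Treg, against 3.56 ± 0.36 in TN. The highest Foxp3 value in TN, 3.99, is used as the background level, and where the lower group mean of a called difference lies at or below it, the change is given as a bound against that level ("at least"). Xist read 11.34 ± 0.44 in GFPKO, 3.67 ± 0.21 in Treg and 3.78 ± 0.06 in TN, so sex and genotype cannot be told apart in comparisons with GFPKO. None of the 5 genes lies on a sex chromosome. Correlations across genes between arrays of a group ran from 0.9789 to 0.9901 in GFPKO. They ran from 0.9896 to 0.9966 in Treg and from 0.9938 to 0.9955 in TN. The GFPKO range was thus lower, with a slight overlap with Treg. The actin control signal at the 3′ end minus that at the 5′ end, a measure of RNA integrity on the log2 scale, was 0.77, 0.83 and 0.45 in GFPKO replicates 1 to 3, 0.44 to 0.61 in Treg and 0.38 to 0.53 in TN. All 9 measured markers of CD4 T cells, Cd3e and Cd4 among them, had group means above background in every group. In Treg minus TN Cd2 was called higher (0.41), and Cd28 (-0.63) and Thy1 (-0.48) lower. Thy1 was lower in GFPKO minus TN (-0.61), and Cd28 was higher in GFPKO minus Treg (0.73).

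Helios and Eos were far higher in both Treg and GFPKO than in TN, Aiolos was moderately higher in both, Ikaros was lower in Treg than in TN, and Pegasus did not pass the test in any comparison. The group means of every gene were estimated together in limma, and a gene was called at a Benjamini-Hochberg adjusted p under 0.05. For Treg minus TN 4 of the 5 genes were called, 3 higher and 1 lower, against 9.97% of all genes (6.54% higher and 3.42% lower). For GFPKO minus TN 3 were called, all higher, against 5.66% of all genes called in either direction and 2.64% called higher. For GFPKO minus Treg 1 was called, higher, against 9.43% in either direction, 2.55% higher and 6.88% lower. The 2 comparisons with TN share its 3 arrays, so they are not independent of each other. In sorted bulk samples, fewer cells of a type and less RNA per cell cannot be told apart.

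**Figure D1:**
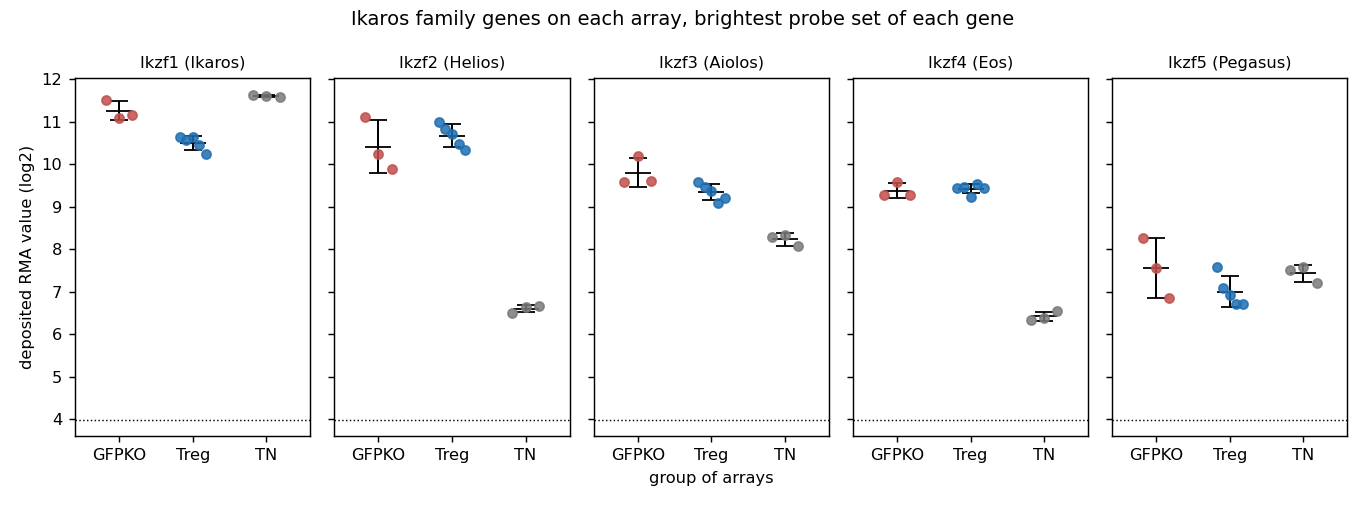
Deposited RMA value (log2) of the brightest probe set of each Ikaros family gene on every array, for GFPKO (n = 3), Treg (n = 5) and TN (n = 3). Points are arrays, black marks are the group mean ± SD, and the dotted line is the background level of 3.99. Ikzf2 and Ikzf4 lie at 9.24 or above on every GFPKO and Treg array and at 6.66 or below on every TN array.

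Ikzf2, which encodes Helios, read 11.11, 10.24 and 9.89 in GFPKO and 11.004, 10.84, 10.72, 10.48 and 10.35 in Treg, against 6.51, 6.64 and 6.66 in TN. Every GFPKO and Treg array lay above every TN array, and the GFPKO and Treg values overlapped. Ikzf2 was 16.9-fold higher in Treg than in TN (log2 fold change 4.07 ± 0.22 SE, limma adjusted p = 6.0e-09), the 13th largest increase among the 18193 genes. In GFPKO it exceeded TN 14.01-fold (3.81 ± 0.25, limma adjusted p = 1.1e-07), the 12th largest increase. Between GFPKO and Treg it was not called (log2 fold change -0.27 ± 0.22, 95% confidence interval -0.74 to 0.21, limma adjusted p = 0.53). The GFPKO arrays spread widely for this gene (SD 0.63, against 0.27 in Treg), and without GFPKO replicate 1 Ikzf2 was called lower in GFPKO than in Treg (-0.61, limma adjusted p = 0.046).

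Ikzf4, which encodes Eos, read 9.27, 9.59 and 9.28 in GFPKO and 9.44, 9.47, 9.24, 9.53 and 9.44 in Treg, against 6.35, 6.38 and 6.54 in TN. The GFPKO and Treg arrays lay within the same narrow range, far above TN. Ikzf4 was 8.01-fold higher in Treg than in TN (log2 fold change 3.00 ± 0.12 SE, limma adjusted p = 2.7e-10), the 35th largest increase. In GFPKO it was 7.77-fold higher than in TN (2.96 ± 0.13, limma adjusted p = 2.5e-09), the 25th largest increase. The difference between GFPKO and Treg was -0.04 on the log2 scale with a 95% confidence interval of -0.30 to 0.21 (limma adjusted p = 0.87), so by this probe set a change beyond 1.23-fold lower or 1.16-fold higher in GFPKO lies outside the interval. The sign turned with arrays centred on their median (0.12) and with array weights (0.14), again without a call.

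Ikzf3, which encodes Aiolos, read 9.59, 10.20 and 9.62 in GFPKO and 9.58, 9.46, 9.37, 9.10 and 9.22 in Treg, against 8.29, 8.33 and 8.07 in TN. All 3 groups were separate, GFPKO highest and TN lowest, although the lowest GFPKO array and the highest Treg array nearly met. Ikzf3 was 2.16-fold higher in Treg than in TN (log2 fold change 1.11 ± 0.16 SE, limma adjusted p = 0.00015) and 2.97-fold higher in GFPKO than in TN (1.57 ± 0.18, limma adjusted p = 3.4e-05). As the mean of its 3 probe sets the change for Treg minus TN was 0.68. GFPKO minus Treg gave 0.46 ± 0.16, which was not called (95% confidence interval 0.12 to 0.79, limma adjusted p = 0.089). It was called without GFPKO replicate 3 (0.55, limma adjusted p = 0.041) and with arrays centred on their median (0.62, adjusted p = 0.032). Array weights also gave a call (0.77, adjusted p = 9.9e-05), with GFPKO replicate 2 weighing 5.11, against 0.25 and 0.31 for replicates 1 and 3. The mean of the gene's probe sets was called as well (0.67, adjusted p = 0.0031). That mean includes 1453378_at, which gave 1.34 and was below background on every Treg and TN array, while 1441088_at gave 0.22, not called.

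Ikzf1, which encodes Ikaros, the founding member, read 11.52, 11.10 and 11.16 in GFPKO and 10.65, 10.56, 10.64, 10.45 and 10.23 in Treg, against 11.64, 11.60 and 11.58 in TN. The groups did not overlap: Treg was lowest, GFPKO lay between, and TN was highest with an SD of only 0.03. Ikzf1 was 2.14-fold lower in Treg than in TN (log2 fold change -1.10 ± 0.13 SE, limma adjusted p = 3.2e-05), the 170th largest decrease. It was 1.69-fold higher in GFPKO than in Treg (0.75 ± 0.13, limma adjusted p = 0.0021). GFPKO minus TN gave -0.35 ± 0.15, which was not called (95% confidence interval -0.67 to -0.03, limma adjusted p = 0.25) except with array weights (-0.49, adjusted p = 0.0030).

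Ikzf5, which encodes Pegasus and recognises a DNA motif different from that of its relatives, read 8.26, 7.57 and 6.86 in GFPKO and 7.59, 7.08, 6.91, 6.71 and 6.71 in Treg, against 7.52, 7.59 and 7.22 in TN. The 3 groups overlapped, and the GFPKO arrays spread most (SD 0.70, against 0.37 in Treg and 0.20 in TN). It was not called in Treg minus TN (-0.44 ± 0.26, limma adjusted p = 0.40), in GFPKO minus TN (0.12 ± 0.29, adjusted p = 0.91) or in GFPKO minus Treg (0.56 ± 0.26, adjusted p = 0.21). The 95% confidence interval for Treg minus TN ran from -0.998 to 0.114, so it reaches 1.997-fold lower in Treg. Without GFPKO replicate 3, GFPKO minus Treg was called higher (0.91, adjusted p = 0.014), and likewise with array weights (0.57, adjusted p = 0.0071).

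The order of the group means thus differed between the genes. GFPKO and Treg were not separated by the test for Ikzf2 and Ikzf4, and TN was lowest for both. For Ikzf3 the order was GFPKO, Treg, TN, with the neighbours GFPKO and Treg not separated by the test. For Ikzf1 it was TN, GFPKO, Treg, with TN and GFPKO not separated by the test. In counts of genes whose arrays did not overlap, 4 of the 5 were separate between Treg and TN (19.5% of all genes), 4 between GFPKO and TN (18% of all genes) and 2 between GFPKO and Treg (14.4%), the last being Ikzf1 and Ikzf3. The median log2 fold change of the 5 genes was 1.11 in Treg minus TN, 1.57 in GFPKO minus TN and 0.46 in GFPKO minus Treg, against 0.03, -0.04 and -0.08 over all genes. GFPKO replicate 1 gave the highest GFPKO value for Ikzf1, Ikzf2 and Ikzf5, and replicate 2 for Ikzf3 and Ikzf4. Replicates 1 and 2 are the GFPKO arrays with the higher actin difference, and with that difference as a covariate 4, 3 and 1 of the 5 genes were again called in the 3 comparisons.

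**Figure D2:**
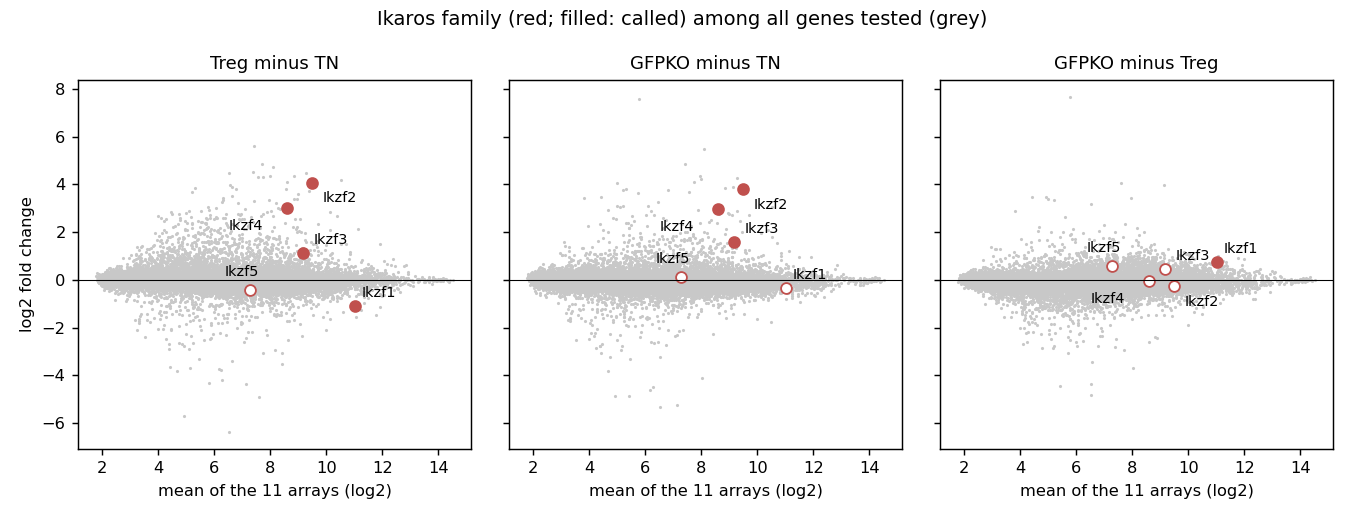
Log2 fold change against the mean over the 11 arrays (log2) for all 18193 genes (grey) in the 3 comparisons, with the Ikaros family in red, filled where called. Ikzf2 and Ikzf4 stand near the upper edge of the cloud in both comparisons with TN, and at -0.27 and -0.04 in GFPKO minus Treg, where Ikzf1 is called at 0.75.

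Each gene is read by 2 or 3 probe sets, and these were fitted together with all 34945 probe sets that name 1 gene. In Treg minus TN 7 of the 13 were called higher and 1 lower, against 7.99% of all probe sets called. In GFPKO minus TN 8 were higher and none lower (4.07% of all probe sets), and in GFPKO minus Treg 2 were higher and none lower (8.6%). No probe set was called against the direction of its gene's main value.

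The Helios probe sets moved the same way with unequal size. The main probe set 1437542_at gave 4.07 for Treg minus TN. The second, 1456956_at, read 8.75 to 10.21 in GFPKO and 8.91 to 9.60 in Treg, against 4.38 to 5.35 in TN, and gave a log2 fold change of 4.47 for Treg minus TN and 4.59 for GFPKO minus TN. The third, 1421643_at, read 3.95 to 4.65 in GFPKO and 4.59 to 5.30 in Treg, and stayed below background on every TN array (2.74 to 3.16). Its increases were called, at least 1.93-fold in Treg and at least 1.21-fold in GFPKO.

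Among the Eos probe sets, 1457342_at gave the larger changes, 3.83 for Treg minus TN and 3.41 for GFPKO minus TN, against 3.00 and 2.96 by the main probe set 1438274_at. It read 8.52 to 8.60 in GFPKO and 8.84 to 9.17 in Treg, against 4.86 to 5.31 in TN. For GFPKO minus Treg these arrays did not overlap, with a log2 fold change of -0.41 (95% confidence interval -0.69 to -0.14) that was not called (limma adjusted p = 0.066), while the main probe set gave -0.04. The third Eos probe set, 1460664_at, read 3.60 to 4.41 over all arrays, at or close to background, and was called in no comparison.

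Aiolos was called higher in Treg by 2 of its 3 probe sets and in GFPKO by all 3, relative to TN. The probe set 1441088_at gave 0.79 and 1.01 on the log2 scale. The dim probe set 1453378_at was below background on every Treg and TN array (2.99 to 3.59 and 2.44 to 3.63), but read 5.60, 4.31 and 3.97 in GFPKO. It was called higher in GFPKO than in Treg and than in TN, at least 1.55-fold in each case. Replicate 1 was the highest of the 3 GFPKO arrays and replicate 3 lay at background. The second Ikaros probe set, 1421303_at, read 5.02 to 5.28 in GFPKO and 4.47 to 5.17 in Treg, against 4.97 to 5.43 in TN. Its log2 fold change for Treg minus TN was -0.38 (95% confidence interval -0.72 to -0.03), not called (limma adjusted p = 0.21), so the lower level of Ikzf1 in Treg rests on the main probe set. The second Pegasus probe set, 1436554_at, lay between 5.33 and 6.03 on all arrays and was called in no comparison.

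**Figure D3:**
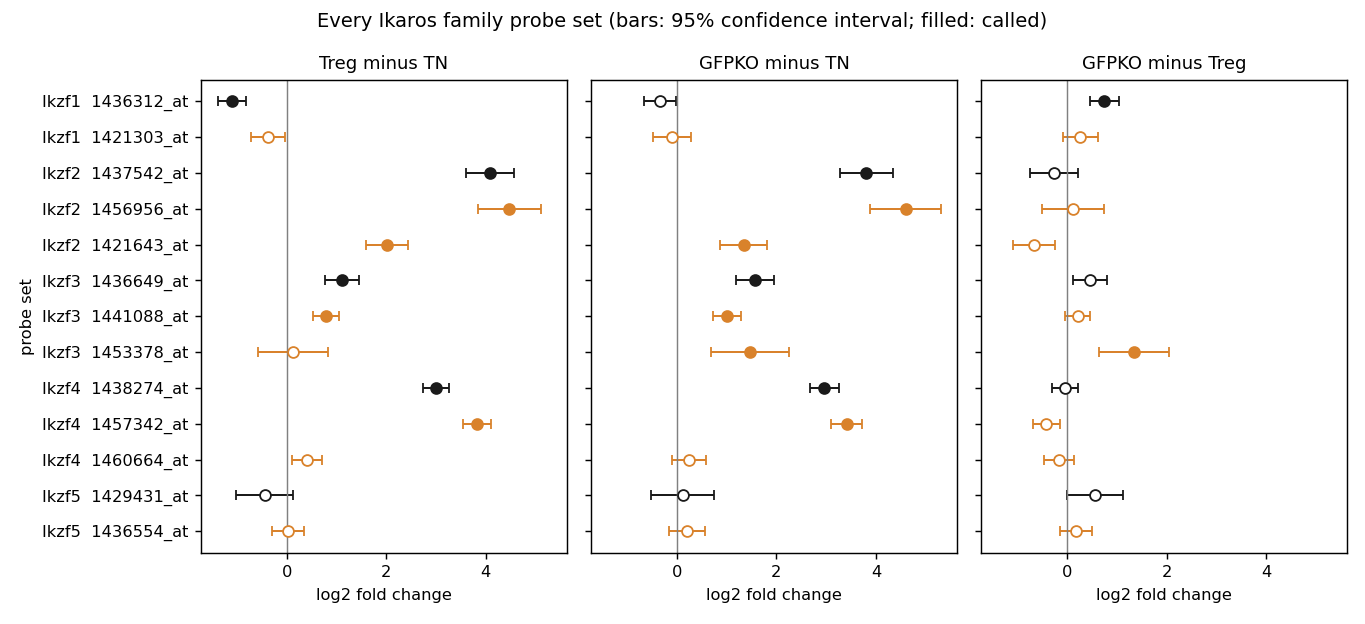
Log2 fold change of all 13 Ikaros family probe sets in the 3 comparisons, with 95% confidence intervals from limma, black for the main probe set of a gene and orange for the others, filled where called. The 2 bright probe sets of Ikzf2 and of Ikzf4 lie between 2.96 and 4.59 in both comparisons with TN, whereas the third of each, which is dim, shows less.

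Whether probe sets of 1 gene gave different changes was tested with limma's diffSplice, each probe set against the others of its gene. In Treg minus TN 5 of the 13 were called, against 2.75% of the 25762 probe sets tested. These were 1456956_at and 1421643_at of Ikzf2 and all 3 of Ikzf4, and 9 were called without GFPKO replicate 1. The 2.75% covers probe sets of genes whether or not they changed. A dim probe set can show a smaller change, and 1421643_at of Ikzf2 and 1460664_at of Ikzf4 were below background on every TN array. The calls for these genes therefore need not mean that their probe sets read different transcripts. In GFPKO minus TN the same number, 5, was called (1.45% of all). In GFPKO minus Treg diffSplice called 0 (3.02% of all), with 4 at an unadjusted p under 0.05, and 1 without TN replicate 1, GFPKO replicate 2 or GFPKO replicate 3. With probe sets limited to those reaching a group mean of 5, what remained was the pair of bright Eos probe sets in Treg minus TN, 0.83 apart (diffSplice adjusted p = 0.0098), and none in GFPKO minus TN. Subtracting the main probe set from each further one per array, an alternative chosen after seeing the data, called 4 in Treg minus TN (3.37% of all such probe sets), 2 in GFPKO minus TN (1.78%) and 0 in GFPKO minus Treg (4.51%). In that fit the Ikaros probe sets differed from each other in Treg minus TN (0.72 ± 0.17 SE, limma adjusted p = 0.030). The further one, 1421303_at, is much dimmer, with a mean over all arrays of 5.03, against 11.01 for the main one.

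Lists of partners, regulators and reported targets of the family were drawn up from general knowledge, with earlier results of these data known. They are described by counts, since no list was tested as a whole. Their counts stand beside the 9.97%, 5.66% and 9.43% of all genes called in Treg minus TN, GFPKO minus TN and GFPKO minus Treg. In lists this short 0 or 1 call is near those shares. Shares of all genes at an unadjusted p under 0.05 are not given, so list counts at that level have no background beside them. Of 13 NuRD genes none was called in any comparison in limma (median log2 fold change 0.08 in each comparison with TN and 0.01 for GFPKO minus Treg). At an unadjusted p under 0.05 there were 2 higher in Treg minus TN, 2 higher and 1 lower in GFPKO minus TN, and 1 higher in GFPKO minus Treg. Chd4, the NuRD helicase, averaged 10.10 in GFPKO and 9.81 in Treg, against 9.86 in TN. Of 8 genes of the CtBP, Sin3 and SWI/SNF cofactors 1 was called, Ctbp2, higher in GFPKO (mean 4.26) than in Treg (3.49, below background) by at least 1.20-fold (limma adjusted p = 0.038). Ctbp1, a co-repressor that Eos recruits, averaged 10.82 in GFPKO and 10.65 in Treg, against 10.88 in TN, and was not called. In limma 0 of 5 genes of the cereblon ubiquitin ligase, which degrades Ikaros and Aiolos in human cells treated with thalidomide analogues, were called in any comparison, with 1 lower in Treg minus TN and 1 higher and 1 lower in GFPKO minus Treg at an unadjusted p under 0.05. Likewise 0 of 5 measured genes of casein kinase 2 and protein phosphatase 1, which act on Ikaros, were called in limma in any comparison, also 0 at an unadjusted p under 0.05.

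Of 17 genes reported as targets of Ikaros factors in T cells, 2 rose and 2 fell in Treg relative to TN. Il10, an anti-inflammatory cytokine gene, was at least 2.01-fold higher, and Myc was higher by 0.69 on the log2 scale. Dntt, which encodes the enzyme that adds nucleotides at antigen receptor joints, was at least 5.23-fold lower, and Il2 at least 1.38-fold lower. In GFPKO relative to TN 3 rose and 3 fell. Those higher were Il10, at least 4.03-fold, and on the log2 scale Bcl2, a survival gene (1.18), and Myc (0.59). Those lower were Dntt, at least 5.23-fold, Il2, at least 1.38-fold, and Tbx21, which encodes the Th1 factor T-bet (-1.63 on the log2 scale). Relative to Treg, GFPKO had 3 called higher, Il10 (1.002), Dtx1, a gene of the Notch pathway (0.52), and Il2, and 1 lower, Tbx21 (-1.67). Il2 averaged 3.71 in GFPKO and 3.03 in Treg, both below background, against 4.46 in TN, so no order between GFPKO and Treg can be read for it. The median of the list was 0.21 in Treg minus TN, 0.07 in GFPKO minus TN and -0.07 in GFPKO minus Treg. Hes1, Ptcra, Notch3 and Rag1 had means below background in every group, so the counts and medians include genes whose change could not be read.

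Of 10 factors reported to act with Eos and Foxp3, 4 rose and 2 fell in Treg relative to TN. The erythroid factor gene Gata1 rose by 2.55 and Irf4, a factor of effector regulatory T cells, by 2.17. Satb1, a genome organiser, fell by 1.56, and Lef1, a factor of naive T cells, fell by 1.28. Relative to TN, 3 rose in GFPKO, Irf4 by 2.28, Gata1 by 1.34 and Xbp1, a factor of the unfolded protein response, by 0.60, and 1 fell, Lef1 (-0.49). GFPKO exceeded Treg for Satb1 (1.01), Lef1 (0.79) and Runx1 (0.71), a runt-domain factor, and was lower for Gata1 (-1.21). Satb1 averaged 11.37 in GFPKO and 10.36 in Treg, against 11.92 in TN, with GFPKO between the others as for Ikzf1. A link between Satb1 and Ikzf1 was not tested. The median was 0.27 in Treg minus TN, 0.54 in GFPKO minus TN and 0.16 in GFPKO minus Treg.

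In the list of the Th17 circuit around Aiolos, 8 of 11 genes were measured. In Treg relative to TN 4 rose and 2 fell, with Ahr, the aryl hydrocarbon receptor that induces Aiolos in Th17 cells, higher by 2.28, Maf by 1.60 and Batf by 0.87, and Il21, a cytokine gene, at least 2.05-fold lower. In GFPKO relative to TN 3 rose and none fell in limma, also 0 lower at an unadjusted p under 0.05: Ahr by 3.77, Maf by 2.90 and Il17a, the signature cytokine of Th17 cells, by 2.46. In GFPKO relative to Treg 4 rose and 1 fell, with Il17a higher by 2.63, Ahr by 1.49 and Maf by 1.29 on the log2 scale, Il21 at least 3.42-fold higher, and Batf lower (-1.11). Ahr averaged 8.53 in GFPKO and 7.04 in Treg, against 4.76 in TN, the same order of group means as Ikzf3. A link between Ahr and Ikzf3 was not tested. The median was 0.51 in Treg minus TN, 0.69 in GFPKO minus TN and 0.81 in GFPKO minus Treg.

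**Figure D4:**
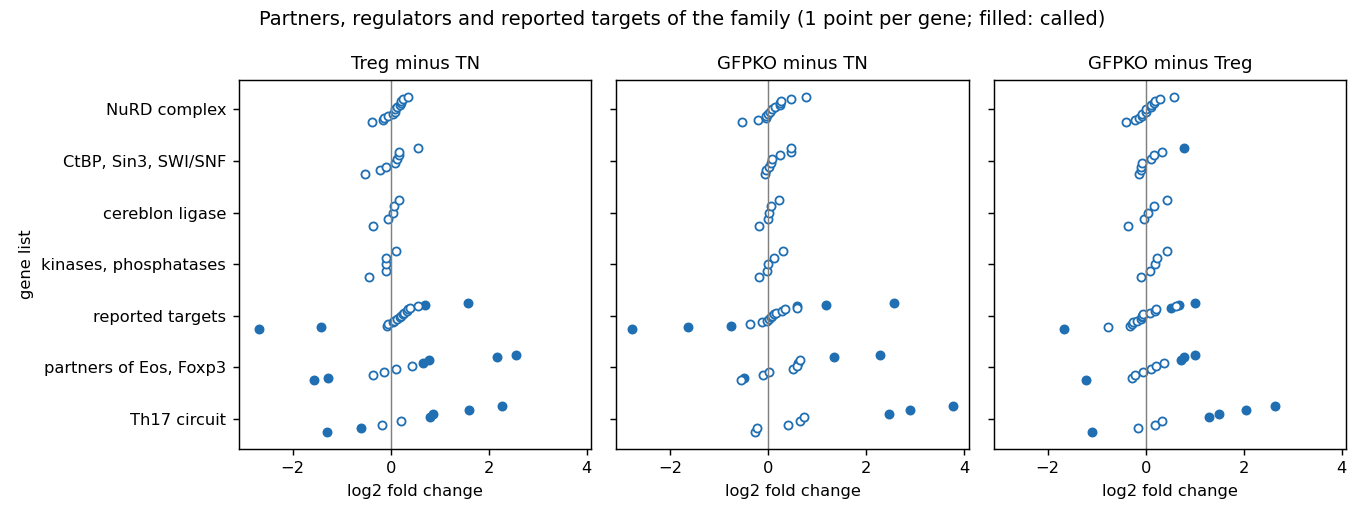
Log2 fold change of each measured gene in 7 lists of partners, regulators and reported targets of the Ikaros family, in the 3 comparisons, filled where called in limma. NuRD, cereblon ligase and kinase and phosphatase genes cluster around 0 with no filled points, while the last 3 lists hold genes called in both directions in Treg minus TN.

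Markers of cell states and of other cells moved in the same comparisons, and their part in the values of the Ikaros family was not tested. Signal sums over a list are sums of the unlogged values per array, in which the brightest probe sets weigh most. Of 12 measured Treg markers, 11 rose in Treg and 11 in GFPKO relative to TN, and 9 fell and 1, Foxp3, rose in GFPKO relative to Treg. The signal sum was 10730 to 11125 in GFPKO and 17917 to 19699 in Treg, against 2390 to 2687 in TN. Foxp3 in Treg, Itgb8 in GFPKO, and Foxp3, Il2ra and Itgb8 in TN were at or below background. Itgae, an integrin, was lower in GFPKO than in Treg (-2.92), as was Nrp1, a co-receptor used beside Helios as a marker of thymic Treg cells (-1.45), in the comparison in which Ikzf2 and Ikzf4 were not called. Of 6 measured naive markers 4 fell in Treg and 2 in GFPKO relative to TN, and 4 rose in GFPKO relative to Treg. Their sum was 13100 to 14791 in GFPKO and 7684 to 8939 in Treg, against 17111 to 19435 in TN. By this sum GFPKO lay between Treg and TN, as it did for Ikzf1, but not every marker followed it. S1pr1 averaged 10.58 in GFPKO and 9.40 in Treg, against 9.94 in TN. Klf2 averaged 11.85 in GFPKO and 11.45 in Treg, against 11.69 in TN. Neither was called in GFPKO minus TN.

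B cells are a cell type in which Aiolos is abundant. Of 10 measured B cell markers, Ms4a1, Cd79a, Ebf1, Blk, Fcer2a and Cr2 had means below background in all 3 groups, and Vpreb3 in TN. Above background in every group were Cd79b (6.01 in GFPKO, 7.63 in Treg and 4.36 in TN), Cd22 (4.87 in GFPKO, 5.82 in Treg and 5.89 in TN) and Pax5 (4.24 in GFPKO, 4.40 in Treg and 4.24 in TN). The summed signal of the list was 158 to 203 in GFPKO and 336 to 402 in Treg, against 171 to 190 in TN. In Treg relative to TN 1 rose, Cd79b by 3.27, so the higher sum in Treg does not stand for the list as a whole. In the same comparison 1 fell, Ms4a1, with both group means below background. In GFPKO relative to TN 1 rose and 2 fell, and in GFPKO relative to Treg 2 fell. Of 13 measured myeloid and dendritic markers, 5 were lower in Treg and the same number in GFPKO relative to TN, among them Tyrobp (-3.31 in Treg and -3.29 in GFPKO), and Lyz2 rose in Treg by 1.43. Against Treg none was called in GFPKO by limma, with 3 lower at an unadjusted p under 0.05. The sum was 4536 to 5216 in GFPKO and 4744 to 5955 in Treg, against 4478 to 5127 in TN, and Itgam and Cd14 were below background in all groups. Ctss, the cathepsin S gene, averaged 11.96 in GFPKO and 12.01 in Treg, against 11.74 in TN, so it makes up most of this sum, which does not show the 5 markers called lower. Of 9 measured NK and CD8 T cell markers 3 were lower in Treg and 5 in GFPKO relative to TN, with a sum of 316 to 464 in GFPKO and 552 to 683 in Treg, against 1093 to 1319 in TN. Klrd1 was at least 28.6-fold lower in GFPKO and in Treg than in TN, and Ncr1 and Klrk1 were below background in all groups. Klrd1 (8.83) and Prf1 (7.92) had the highest TN means of this list. Cd8a (0.34) and Nkg7 (0.72) were not lower in Treg minus TN, and neither was called there. The NK and CD8 sum thus does not stand for the list as a whole. In GFPKO relative to Treg 1 rose and 2 fell. Of 5 measured erythroid and platelet markers 0 were called in limma in any comparison, with 1 lower in GFPKO minus Treg at an unadjusted p under 0.05.

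The genes closest in pattern to each called member were found by the root mean square difference of the log2 values over the 11 arrays, each gene centred on its own mean, among 7958 genes with a group mean of at least 6. For Ikzf2 these were Rgs1, a regulator of G protein signalling (0.26), Gbp2b, an interferon-inducible guanylate-binding protein (0.30), the inhibitory receptor gene Ctla4 (0.31) and Coro2a, a coronin (0.41). The root mean square deviation of Ikzf2 itself from its mean was 1.80, for scale. For Ikzf4, with its own value of 1.33, they were the chemokine receptor gene Ccr6 (0.18), the feedback inhibitor gene Cish (0.30), D630039A03Rik (0.30) and Ptger2, a prostaglandin E2 receptor (0.31). For Ikzf3 (0.63) they were Slc35g1 (0.14), the polarity gene Pard6g (0.18), the receptor gene Notch2 (0.19) and Cyth3, an exchange factor for ARF proteins (0.23). For Ikzf1 (0.50) they were Selenop, which encodes selenoprotein P (0.12), the receptor gene Gpr171 (0.13), Tle4, a Groucho co-repressor (0.14), and Commd8 (0.15).

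The nearest measured protein-coding genes on either side of each member were also read out, a choice made after the data were seen. Of these 10 genes 2 were called in Treg minus TN, against 9.97% of all genes, Fignl1 beside Ikzf1, at least 2.80-fold higher with a TN mean below background, and Suox beside Ikzf4, higher by 0.80 (limma adjusted p = 0.0064). Fignl1, an AAA ATPase of DNA repair, thus went in the direction opposite to Ikzf1. Suox encodes sulfite oxidase, and its change was smaller than the 3.00 of Ikzf4. The neighbours of Ikzf2, Erbb4 and Spag16, were below background in every group. Rps26 on the other side of Ikzf4 averaged 13.65 in GFPKO and 13.72 in Treg, against 13.63 in TN. Limma called 0 of the 10 neighbours in GFPKO minus TN and 0 in GFPKO minus Treg, with 4 and 3 at an unadjusted p under 0.05. The shares of all genes at that unadjusted level are not given, so nothing is read from the 4 and 3.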

How the data were processed

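The deposited table holds log2 expression values per probe set, made by the authors with RMA, per the submitters' processing notes (version and settings are not given in the sources used here). That they are log2 values was read from their range, 1.54 to 14.65. The 11 arrays were grouped by their titles. Of 45101 probe sets, 34945 name 1 gene in the platform annotation. Each gene is represented by whichever of its probe sets was brightest on average, which left 18193 genes. The values were not normalised again. The arrays were fitted together, 1 mean per group, in limma (version 3.58.1, R version 4.3.3; lmFit, eBayes, two-sided), with Benjamini-Hochberg adjustment over all genes within a comparison and calls at an adjusted p under 0.05. The scripts were tested on simulated data. The number of arrays limits the precision, and levels of different genes are not compared. Marker sums add the unlogged values of several probe sets and are compared between groups only.

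The members and lists were chosen with earlier results of these data known, and the background level was set after the values were seen. Named were the 5 genes and their probe sets, Foxp3, Il2ra and Ctla4 as checks, up to 4 called genes with the largest change per list and comparison, and 4 genes closest in pattern per called member. Chd4, Ctbp1, Xist, Cd3e, Cd4, Pax5 and Ctss, and Il2, Myc and Batf in the comparisons with GFPKO, were named beyond that rule, after their values were seen. So were Klf2, Cd8a, Hes1, Ptcra, Notch3 and Rag1, and S1pr1 and Nkg7 in comparisons with TN. List genes without a probe set of their own in the single-gene table were not analysed here. Alternatives were fits of the compared groups alone, the replicate number as a block, the actin difference as a covariate, median centring, repeated quantile normalisation, a filter on dim genes, trended robust moderation, array weights, the mean of a gene's probe sets, and leaving out each array.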

Additional observations from a re-analysis of the deposited data

How the results depend on the processing

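Of 300 recomputed log2 fold changes of the 5 genes, 285 kept their direction and their side of the threshold, including every one for Treg minus TN, where 4 genes were called under every alternative run. The rest concern GFPKO, and the cause was not tested. Many of the recomputed fold changes could not move, and only their adjusted p could. These were the fits with the compared groups alone, the filter on dim genes and trended robust moderation. The same holds where the array left out belonged to the group not compared. Ikzf1 in GFPKO minus TN was called with array weights (-0.49), which gave 4 genes there. In GFPKO minus TN Ikzf5 turned to -0.36 with the actin covariate and ran from -0.23 (without GFPKO replicate 1) to 0.47 with 1 array left out. In GFPKO minus Treg, median centring gave 0.62 for Ikzf3 and 0.12 for Ikzf4, with 2 genes called. Array weights gave -0.46 for Ikzf2, 0.77 for Ikzf3, 0.14 for Ikzf4 and 0.57 for Ikzf5, with 4 called. GFPKO replicate 2 weighed 5.11 there, against 0.25 and 0.31 for GFPKO replicates 1 and 3. All GFPKO values with array weights thus rest mostly on replicate 2. The mean of the probe sets gave 0.67 for Ikzf3, with 2 called. Leaving out 1 array gave -0.61 to -0.0057 for Ikzf2, 0.26 to 0.56 for Ikzf3, -0.15 to 0.010 for Ikzf4 (0.0054 without GFPKO replicate 3) and 0.22 to 0.91 for Ikzf5, with 1 to 3 genes called, 2 without GFPKO replicate 1 and 3 without GFPKO replicate 3.

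For probe sets that differ within a gene, the count of 5 in Treg minus TN became 2 with bright probe sets alone and 4 to 9 with 1 array left out. In GFPKO minus TN the 5 became 0 with bright probe sets alone and 2 by subtracting the main probe set per array, and stayed at 5 with any array left out. In GFPKO minus Treg the 0 became 1 without TN replicate 1, GFPKO replicate 2 or GFPKO replicate 3, a range of 0 to 1.

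The replicate numbers were not treated as pairs in the main fit. Same-numbered arrays had correlations of their deviations from -0.22 to 0.51, and differently numbered arrays from -0.54 to 0.51. Of 9 arrays 3 correlated best with their own number. With so few arrays this cannot exclude a pairing. With the replicate block 4, 3 and 1 genes of the family were called as before, with log2 fold changes of 4.25 for Ikzf2 and 2.96 for Ikzf4 in Treg minus TN, and the genes called among all were 1436, 1028 and 1049, against 1813, 1029 and 1716 without it.

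Median centring moved the median of all genes by -0.14 in Treg minus TN and 0.17 in GFPKO minus Treg. The split of higher and lower calls then was 904 and 1174 in Treg minus TN, against 1190 and 623, and 899 and 675 in GFPKO minus Treg, against 464 and 1252, or 656 and 922 with quantile normalisation. All-gene counts ranged from 1360 to 2398, 644 to 1868 and 1134 to 3421 with 1 array left out. They were 2551, 562 and 1341 with the compared groups alone, 2073, 570 and 811 with the actin covariate, and 3223, 5051 and 6756 with array weights. No array of the 5-array Treg group lay far from the others in the 13 probe sets. Groups of 3 arrays leave wide intervals for GFPKO, and dim probe sets show only bounds.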
